A study of Mus musculus with 2 samples.

Results

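The cytosolic ribosomal protein genes encode the proteins of the cytoplasmic ribosome. Transcripts were counted cell by cell in the pancreas of 2 mouse embryos of day 18.5, 1 from the control group and 1 from the knockout group. Members were the genes whose symbol begins with Rps or Rpl and a number, alone or followed by a, x, l or l1, together with Rplp0, Rplp1, Rplp2 and Rpsa, and without the S6 kinase genes. This rule found 83 of the 27998 genes listed: 30 of the small (40S) subunit, 46 of the large (60S) subunit and 7 paralogs. The rule used symbols only and no measured value. Ribosomal proteins with other symbols (Rps3a1, Rpl36al, Fau and the like) fell outside it. Each library came from 1 pancreas, and both embryos were of strain C57BL/6. The series calls the genotype of the knockout library Dpy30∆P, where Dpy30 encodes a shared subunit of the TrxG complexes that methylate histone H3, and compares it with a control pancreas of the same day. The promoter that drove the deletion, the cells it reached and the alleles of the control are not stated by the labels.

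Each ribosome is built in the nucleolus from ribosomal RNA and from proteins imported from the cytoplasm, and the small subunit reads the messenger RNA while the large subunit joins amino acids. The proteins are needed in fixed proportions, and unpaired ones are degraded. Their messenger RNAs are short and abundant and begin with a run of pyrimidines, the terminal oligopyrimidine or TOP motif, through which mTOR signalling controls their translation. The acinar cells of the late embryonic pancreas start to make large amounts of digestive enzymes, and the beta cells insulin, so that secretory and ribosomal transcripts compete for the same total in a count of transcripts. Ribosomal protein genes have left many processed pseudogenes in the genome, which are copies made from messenger RNA and inserted elsewhere.

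Captured transcript ends were counted by unique molecular identifiers (UMIs): 25398522 over 3986 barcodes in control and 33048640 over 4779 in knockout. Cells with at least 500 genes and at most 10% mitochondrial UMIs, without called doublets, numbered 2611 and 3233, with medians of 6831 and 6631 UMIs. The libraries shared 27 barcodes, 17 of them among the kept cells of each, and leaving them out kept the direction of the ribosomal share's library ratio in 9 of 9 classes. The libraries differed in sex: Xist had 1 UMI in the control and 46550 in the knockout library, and 4 Y-linked genes had 3148 and 1. Sex, genotype, embryo and library therefore cannot be told apart. Dpy30 itself stood at 113 CPM (UMIs of the gene per 1000000 UMIs) in control and 144 CPM in knockout cells, and since the labels do not say which part was deleted, a tag at the 3′ end does not check the label. With 1 library per group no difference has a replicate check, no test was made, and the 95% interval printed after a ratio reflects counting error alone.

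Clustering without the members gave 24 clusters, and 9 classes named by markers had at least 50 cells in both libraries, 5141 of the 5844 cells in all. They were acinar-like (110 control and 759 knockout cells), ductal-like (503 and 386), progenitor-like (58 and 71, led by Neurog3), beta-like (216 and 100), alpha-like (97 and 67), mesenchymal-like (831 and 1049), mesothelial-like (215 and 187), endothelial-like (179 and 118) and macrophage-like (87 and 108). The alpha-like cluster also had Ghrl and Gast among its leading genes, and the macrophage-like class S100a8 and S100a9.

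Ribosomal protein transcripts were a large part of all transcripts captured. In the kept cells together they took 27.4% of UMIs in the control and 30.8% in the knockout library, and the median cell gave 29.1% and 30.1%. Barcodes with fewer than 500 genes, where globin took 85.1% and 89.5% of UMIs, held only 1.39% and 1.37%. The 5 members with most UMIs were Rpl41, Rpl37a, Rps19, Rpl13 and Rpl32, and Rpl41, which encodes the smallest protein of the large subunit, stood at 10911 CPM in control and 11827 CPM in knockout cells. These counts come from 3′ ends and are not divided by transcript length. Of the 83 members, 80 had at least 100 UMIs in the kept cells.

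The ribosomal share differed more between cell types than between libraries. In the control library it was lowest in beta-like cells, at 13.1%, followed by alpha-like (22.1%), macrophage-like (23.7%), mesothelial-like (25.7%), progenitor-like (28.0%), endothelial-like (29.1%), ductal-like (30.9%), mesenchymal-like (31.4%) and acinar-like cells (32.4%). In the knockout library the values in the same order were 15.6%, 20.9%, 23.5%, 25%, 29.5%, 29.6%, 31.3%, 31.0% and 34.4%. Within a class the cells ranged widely: in control mesenchymal-like cells the 10th percentile was 22.0% and the 90th 40.8%. Mesenchymal-like clusters also differed from each other, with a median cell of 36.4% in the cluster led by Cxcl1 and Serpine2 and 22.8% in the cluster led by Krtdap and Mfap5.

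**Figure D1:**
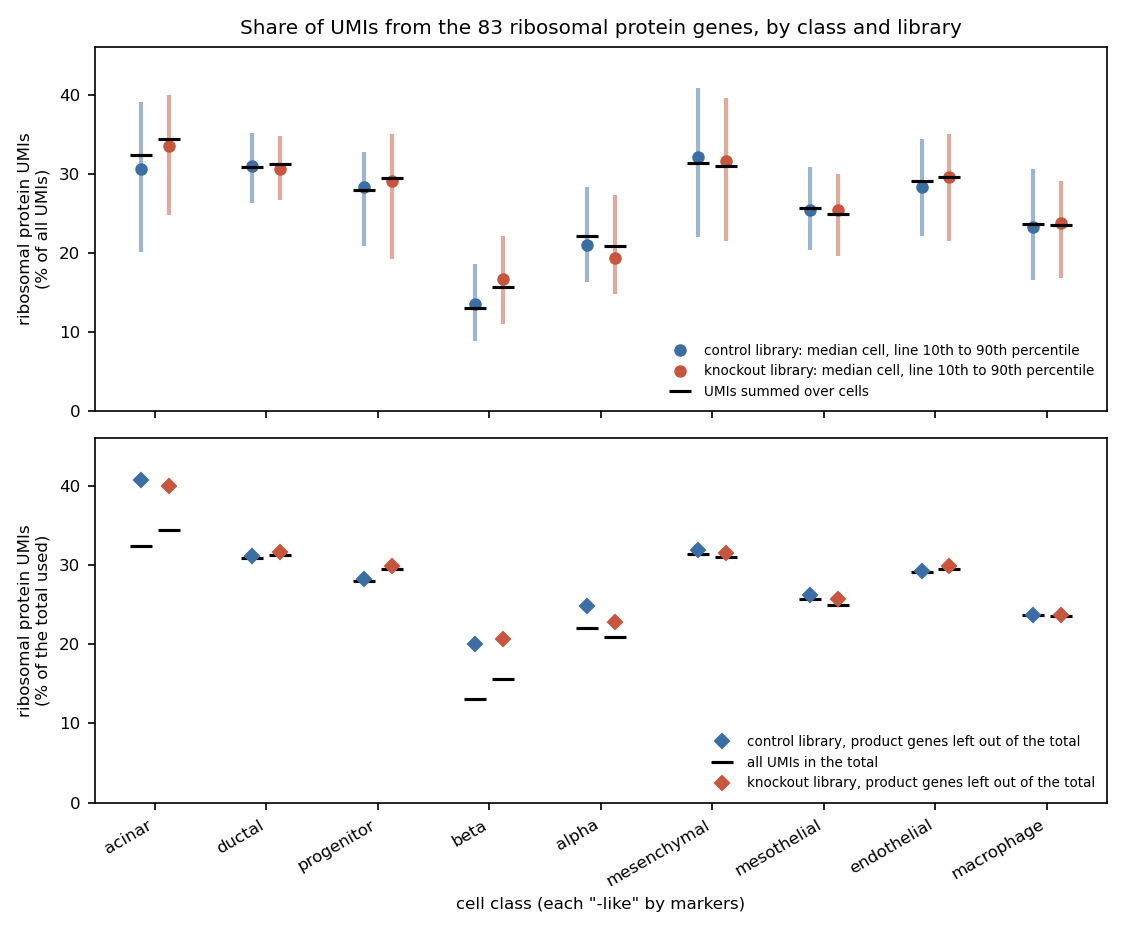
Share of UMIs from the 83 ribosomal protein genes (vertical axis, %) in 9 cell classes (horizontal axis), with control in blue and knockout in red. The upper panel shows the median cell (dot), the 10th to 90th percentile of cells (line) and the summed UMIs (bar). The lower panel repeats the summed share (bar) and adds the share with product genes left out of the total (diamond). The same product genes were left out in every class, among them digestive enzymes, hormones, globins, Col1a1, Col1a2 and Col3a1. Beta-like cells are lowest in both libraries, and acinar-like cells move from 32.4% and 34.4% to 40.7% and 40.0%.

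Between libraries the share was higher in knockout in 5 of 9 classes and lower in 4, mostly by a few percent. The widest ratio was that of beta-like cells, 1.198 (1.191 to 1.205), and the next were acinar-like cells at 1.062 (1.058 to 1.066) and progenitor-like cells at 1.054 (1.047 to 1.061). Alpha-like cells lay lowest at 0.948 (0.940 to 0.955). Ductal-like, endothelial-like, mesenchymal-like, mesothelial-like and macrophage-like cells lay between 0.970 and 1.015, and the interval of macrophage-like cells (0.988 to 1.003) included 1. The ductal-like ratio was 1.013 on summed UMIs, whereas its median cell was at 31.0% in control and 30.6% in knockout.

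Secretory transcripts moved with these differences. Product genes were the same list in every class, among them digestive enzymes, hormones, globins, Col1a1, Col1a2 and Col3a1. In beta-like cells hormone and other product genes took 35.0% of UMIs in control and 24.2% in knockout, and in acinar-like cells enzymes and other product genes took 20.6% and 14%. With those genes out of the total, the ribosomal share of beta-like cells was 20.1% in control and 20.7% in knockout, a ratio of 1.028 (1.022 to 1.034). In acinar-like cells it was 40.7% and 40.0%, and the ratio changed direction to 0.981 (0.977 to 0.985). In alpha-like cells the ratio fell further, to 0.916. Depth also differed: the median acinar-like cell had 6223 UMIs in control and 11658 in knockout, and the median beta-like cell 13051.5 and 7662. The part of depth in these ratios was not tested.

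The makeup of the beta-like class differed between the libraries too. Finer clustering divided it into a cluster led by Ins1, Ins2 and Npy, with 116 control and 21 knockout cells, and a cluster led by Sst, Pyy and Rbp4, with 100 and 79 cells. Ins1 and Ins2, the insulin genes, together took 293032 CPM of the whole class in control and 166259 CPM in knockout. In the cluster led by insulin the ribosomal share was 12.1% in control and 11.2% in knockout, a ratio of 0.929 (0.919 to 0.939), the opposite of the whole class. In the cluster led by Sst it was 15.2% and 18.1%, a ratio of 1.191 (1.182 to 1.201). The 21 knockout cells are under the minimum of 50 set for a class, so the first of these ratios rests on few cells.

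A member was counted as past the fold in a class when its knockout CPM was at least 1.2 times the control CPM, or at most 1/1.2 of it, with at least 100 UMIs in both libraries together. Each main count stands beside the share of all genes that passed the same rule. Counts under other settings or in single clusters have no such share. In acinar-like cells 8 of 80 members were higher and 3 lower, against 42.4% and 15.6% of all genes. These acinar-like counts became 3 higher and 6 lower with product genes out of the total, 2 and 3 in the acinar-like cluster that both libraries filled, and 18 and 3 with cells thinned to 2000 UMIs. In ductal-like cells 1 was higher and 2 lower, against 16.2% and 14.7%. Progenitor-like cells had 2 and 3 of 79 (13.9% and 19.0% of all genes), and alpha-like cells 3 and 8 of 79 (31.2% and 14.6%). Mesenchymal-like cells had 2 and 1 of 80 (13.0% and 14.9%), mesothelial-like cells 1 and 4 (15.1% and 16.1%), endothelial-like cells 3 and 3 (13.2% and 18.1%) and macrophage-like cells 3 and 4 of 79 (18.9% and 18.0%). In these 8 classes the members' shares (1.25% to 10.1%) lay below those of all genes in the same class and direction. The members have far more UMIs than most genes. Among genes with over 1000 UMIs in these classes, 3.25% to 36.0% were higher and 6.09% to 13.4% lower. Some of these shares lay near the members' own, such as 3.25% against 2.53% higher in progenitor-like cells and 13.4% against 10.1% lower in alpha-like cells.

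Beta-like cells were the exception, with 48 of 80 members higher and 1 lower, against 46.1% and 9.36% of all genes. The 48 members are 60% of those tested, and of genes with over 1000 UMIs in the class 37.4% were higher. The member that was lower was Rpl29, at 1216 CPM in control and 827 CPM in knockout. In the cluster led by insulin 1 of 79 members tested was higher and 16 were lower. In the cluster led by Sst 34 of 79 were higher and 1 was lower. With product genes out of the total, 7 members of the whole class were higher and 9 lower, and on the ribosomal pool defined next 3 were higher and 11 lower. The balance of the whole class therefore held neither in the insulin-led cluster nor under these scalings. The share over all genes was not taken in the finer clusters or under these scalings, so these counts have no background.

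To compare members with each other apart from the total, each was also expressed as a share of all member UMIs of its class and library, called the ribosomal pool below. Of the 79 members with enough UMIs in all 9 classes, 16 (20.3%) had a higher pool share in knockout in every class, against 4.72% of 933 genes scaled in the same way. A further 10 (12.7%) were lower in every class, against 2.68%. On all UMIs 14 members were higher in every class and 6 lower, against 6% and 1.5% of genes. The 933 genes include the 79 members. On the pool, members were 16 of the 44 genes higher in every class and 10 of the 25 lower. Members also have far more UMIs than most genes, and these shares were not matched for that. The pool adds up to a fixed sum, so members that rise in it force others down.

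**Figure D2:**
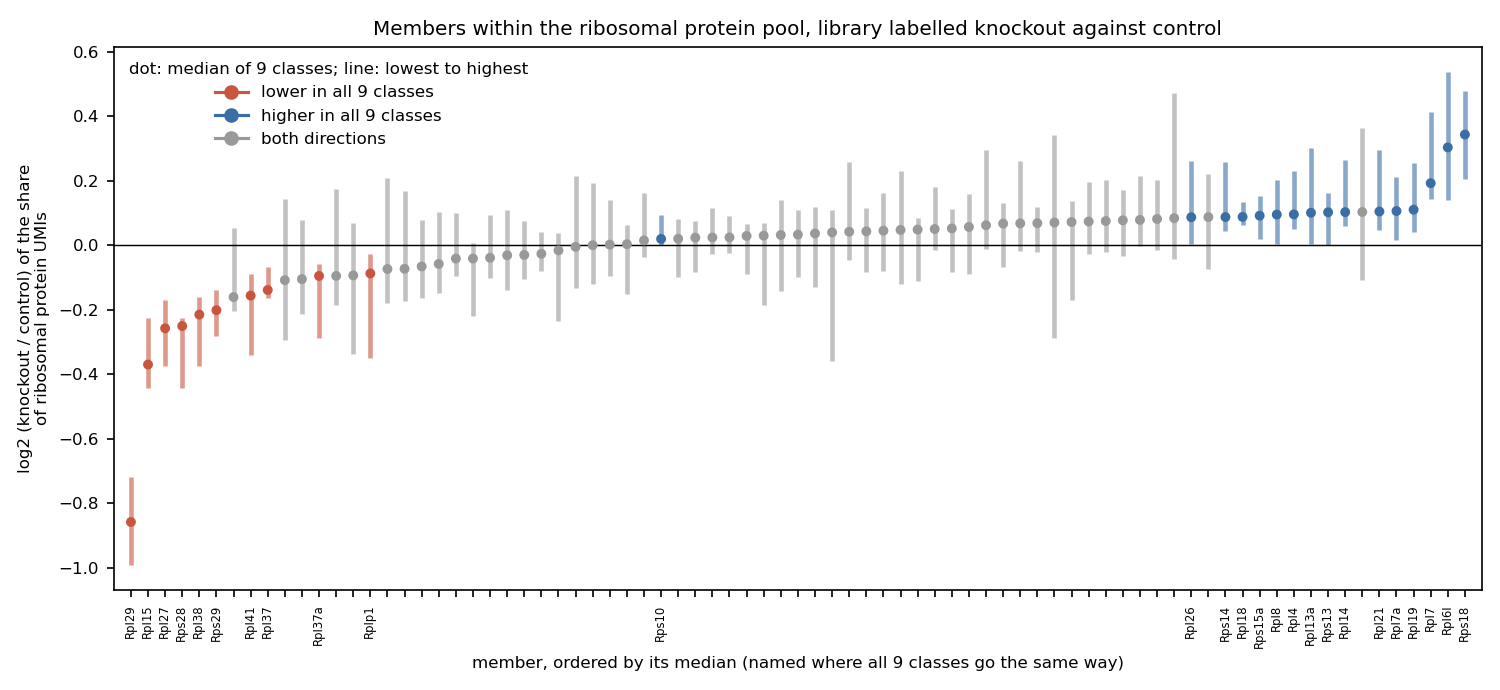
Pool share of 79 members in knockout over that in control (vertical axis, log2), with members ordered by their median (horizontal axis) and named where all 9 classes went the same way. Dots are medians of 9 classes and lines run from the lowest to the highest class. Rpl29 lies far below the rest, Rpl15 next, and Rps18, Rpl6l and Rpl7 lie highest.

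The 10 members that were lower in every class were Rpl29, Rpl15, Rpl27, Rps28, Rpl38, Rps29, Rpl41, Rpl37, Rpl37a and Rplp1. After Rpl29, which is described next, Rpl15 had the lowest ratios, from 0.735 in macrophage-like to 0.854 in mesenchymal-like cells. Rpl15, a core protein of the large subunit, stood at 1241 CPM in control and 968 CPM in knockout ductal-like cells, and at 1235 and 933 CPM in endothelial-like cells. Rpl27 ran from 0.770 to 0.889, Rps28 from 0.736 to 0.855 and Rpl38 from 0.770 to 0.895. The other 5 stayed between 0.785 and 0.980. The median length of the longest annotated transcript was 570 bases in the 10 members and 1014.5 bases in the 16 that were higher in every class. Over all 79 members the rank correlation of length with the median pool ratio was 0.31, given as a description over genes that share libraries.

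The 16 members that were higher in every class were led by Rps18, Rpl6l and Rpl7. Rpl7, an RNA-binding protein of the large subunit, ran from 1.104 to 1.332 and stood at 2027 CPM in control and 2868 CPM in knockout acinar-like cells. Rpl6l, annotated as a processed pseudogene and a near-identical copy of Rpl6 (98.7% identity over 871 bases), ran from 1.101 to 1.452. Over all kept cells it stood at 187 CPM in control and 254 CPM in knockout. Rpl6 itself had ratios on all UMIs from 0.952 to 1.136. The other 13 (Rpl19, Rpl7a, Rpl21, Rpl14, Rps13, Rpl13a, Rpl4, Rpl8, Rps15a, Rpl18, Rps14, Rpl26 and Rps10) had medians between 1.013 and 1.079. Some of these lay close to 1 in at least 1 class, so that their shared direction is weak.

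Rpl29 (ENSMUSG00000048758, chr9:106429454-106431568 on the plus strand of GRCm38) was the most extreme member. It encodes a small protein at the surface of the large subunit that is also known as a heparin-binding protein. In control cells it ranged over the classes from 1216 CPM (beta-like) to 2602 CPM (endothelial-like), and in knockout cells from 827 CPM (beta-like) to 1416 CPM (endothelial-like). Within each of the 9 classes the knockout value was the lower. The ratio on all UMIs ran from 0.50 (0.453 to 0.552) in macrophage-like to 0.681 (0.630 to 0.734) in beta-like cells. The pool ratio was below 1 in all 23 clusters with at least 5 cells in both libraries, from 0.417 to 0.603.

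A near-identical copy of Rpl29 moved the other way. Gm10709, annotated as a processed pseudogene at chr9:7751725-7752204, matched Rpl29 at 99.2% of 480 aligned bases, with 4 mismatches. It had 174 UMIs in control and 17521 in knockout cells, or 8.03 and 621 CPM. By class it lay between 3.40 and 16.4 CPM in control and between 380 and 683 CPM in knockout. Barcodes with fewer than 500 genes showed the same contrast, with 0 UMIs in control, which allows up to 0.933 CPM, and 69 UMIs (16.1 CPM) in knockout. The following stretches of the Rpl29 transcript and of Gm10709 are shown because single bases part the 2 genes within the 480 aligned bases. The Rpl29 transcript, of 710 bases, extends beyond that alignment. Capitals mark the mismatch, positions count from 1 at the 5′ end of the 710-base Rpl29 transcript (coding sequence at 110 to 589), and the substitutions, Rpl29 base first, are C409T, T532C and G566A; G314A is the other mismatch.
Rpl29 395 to 424: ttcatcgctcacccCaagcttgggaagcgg
Gm10709 395 to 424: ttcatcgctcacccTaagcttgggaagcgg
Rpl29 518 to 547: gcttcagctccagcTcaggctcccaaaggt
Gm10709 518 to 547: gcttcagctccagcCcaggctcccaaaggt
Rpl29 552 to 581: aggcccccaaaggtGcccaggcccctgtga
Gm10709 552 to 581: aggcccccaaaggtAcccaggcccctgtga

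Summed with its copies, Rpl29 differed less between the libraries. Together with 3 further copies that had enough UMIs, the copies took 0.378% to 1.18% of the family's UMIs in the 9 control classes and 31.3% to 35.6% in the 9 knockout classes, with no overlap. The family of Rpl29 and its copies had pool ratios from 0.728 to 0.906, in place of 0.502 to 0.608 for Rpl29 alone. On all UMIs the family stood at 1226 and 1233 CPM in beta-like cells, a ratio of 1.006, and at 2134 and 2053 CPM in acinar-like cells, a ratio of 0.962. The largest remaining difference was in macrophage-like cells, at 1996 and 1447 CPM. The level of Rpl29 alone is therefore uncertain, since counting can split reads between genes with near-identical sequences. The part of such a split in these values was not tested, and reads were not used here.

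Rps18 and its copies also differed in opposite directions, here with the member higher in knockout and the copies lower. Rps18 (ENSMUSG00000008668, chr17:33951999-33956001 on the minus strand) encodes a protein at the head of the small subunit. It ranged over the classes from 2032 to 6110 CPM in control and from 3088 to 7145 CPM in knockout, and was higher in knockout within every class. Its ratio on all UMIs ran from 1.169 (ductal-like) to 1.519 (beta-like). Gm10260 on chromosome 13, annotated as protein coding, matched Rps18 at 99.1% of 545 bases and fell from 11904 UMIs in control to 852 in knockout, with class levels of 235 to 793 CPM and 12.2 to 38.9 CPM. Rps18-ps3 on chromosome 8 matched at 99.3% of 456 bases and had 8308 and 3821 UMIs. The stretches below show where the copies part from Rps18. Positions count from 1 at the 5′ end of the 560-base Rps18 transcript (coding sequence at 58 to 513), capitals mark the mismatch, and the substitutions shown are A394C in both copies, C487T in Rps18-ps3 and G488A in Gm10260. Not shown are G238C in Rps18-ps3 and T243C, G428A and G534C in Gm10260.
Rps18 380 to 409: gtgaggacctggagAggctgaagaaaattc
Gm10260 380 to 409: gtgaggacctggagCggctgaagaaaattc
Rps18 473 to 502: ctggccgcaggggcCgaactgtgggtgtat
Rps18-ps3 473 to 502: ctggccgcaggggcTgaactgtgggtgtat
Rps18 474 to 503: tggccgcaggggccGaactgtgggtgtatc
Gm10260 474 to 503: tggccgcaggggccAaactgtgggtgtatc

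The copies took 16.0% to 18.0% of the Rps18 family's UMIs in the control classes and 2.28% to 3.46% in the knockout classes, again with no overlap. With them the family's pool ratio ran from 0.973 in ductal-like to 1.194 in acinar-like cells and was above 1 in 8 of 9 classes, in place of 1.155 to 1.391 for Rps18 alone. In ductal-like cells the family stood at 7449 CPM in control and 7340 CPM in knockout. The 933 genes measured in every class were also ranked by the class closest to 1, leaving out Xist, Tsix, Ddx3y, Eif2s3y, Kdm5d and Uty. In that ranking Gm10260, Rps18-ps3 and Rpl29 had the lowest ratios and Gm10709 and Rps18 the highest.

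**Figure D3:**
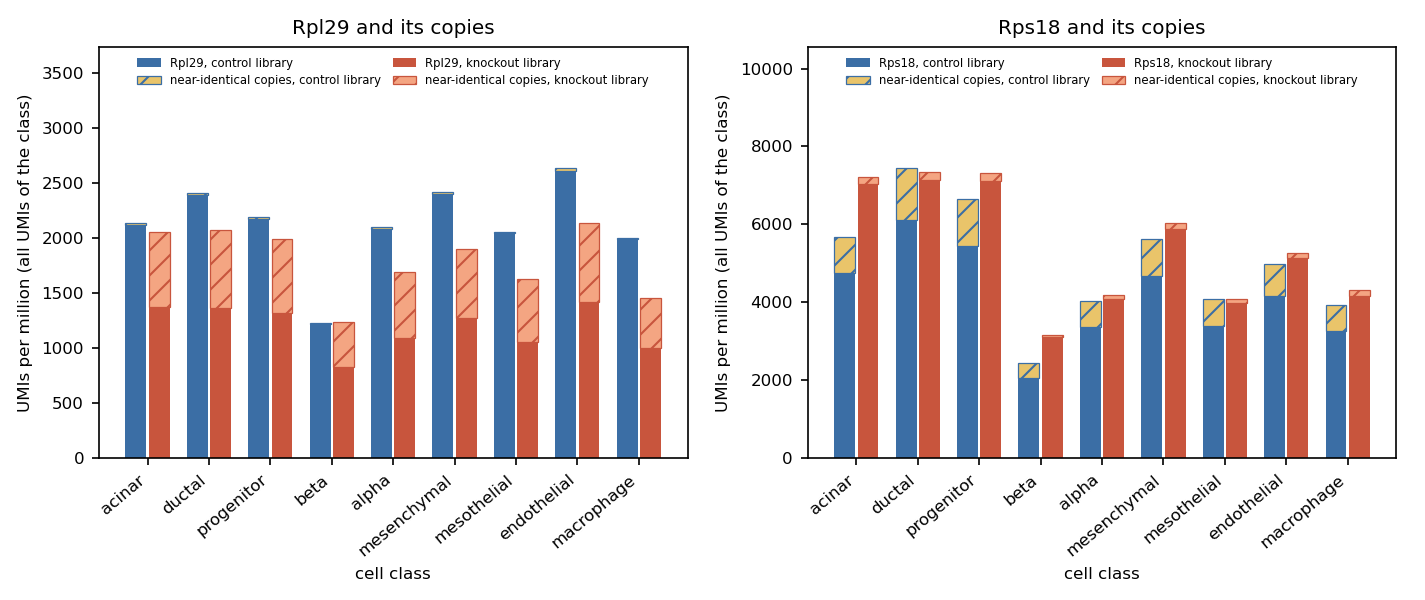
CPM (vertical axis) of Rpl29 (left) and Rps18 (right) as solid bars, with their near-identical copies stacked as hatched bars, by cell class (horizontal axis) and library (control blue, knockout red). Copies of Rpl29 are almost absent from control and hold 31.3% to 35.6% of the family in knockout, while copies of Rps18 hold 16.0% to 18.0% in control and 2.28% to 3.46% in knockout.

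In the other families that were summed, adding the copies changed the median pool ratio of the member less. In all, 27 members had at least 1 copy at 95% identity or more over 200 bases or more. Of these, 26 had copies outside the members with at least 100 UMIs. The other was Rpl6, whose only copy, Rpl6l, is itself a member, and this pair was not summed as a family. Copies took 2.67% of the UMIs of members and copies in control and 2.61% in knockout. Beyond Rpl29 and Rps18, adding the copies moved no median pool ratio of a summed member by more than 1.04-fold. A member and its copy could still go different ways. The pool ratio of Rplp1 was below 1 in every class, and that of its copy was above 1 in 8. The copy of Rpl15, Gm10020, had 80.5 CPM in control and 75.7 CPM in knockout. With this copy added, the pool ratio of Rpl15 ran from 0.726 to 0.862 over the classes. Members with copies remain uncertain in level all the same, since the sources used here do not say how the authors' counting treated reads that fit several genes.

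The balance of the subunits was close in both libraries. Summed UMIs of small subunit members over those of large subunit members ranged from 0.651 in control beta-like cells to 0.817 in knockout macrophage-like cells. The ratio was higher in knockout in all 9 classes, by 1.004 (acinar-like) to 1.051 (beta-like, 1.041 to 1.061), and the intervals of acinar-like and progenitor-like cells included 1. The count of classes depended on the members with copies: without Rpl29 and Rps18 it was higher in 7 of 9 classes, from 0.984 to 1.034, and with all copies added in 7 of 9, from 0.993 to 1.039. Acinar-like and progenitor-like cells were the classes below 1 in both cases. These settings were chosen after seeing the data.

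Most members held a similar part of the pool in every cell type. The median member had a 1.47-fold range over the 9 classes in control and 1.44-fold in knockout, and 41 of 79 stayed under 1.5-fold in both libraries. Among the narrowest were Rpl21, Rps15 and Rpl34, with Rpl21 between 1.02% and 1.28% in control and between 1.19% and 1.34% in knockout. The highest class was the same in both libraries for 47 members and the lowest for 49. Each range compares a member with itself and not with other members.

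**Figure D4:**
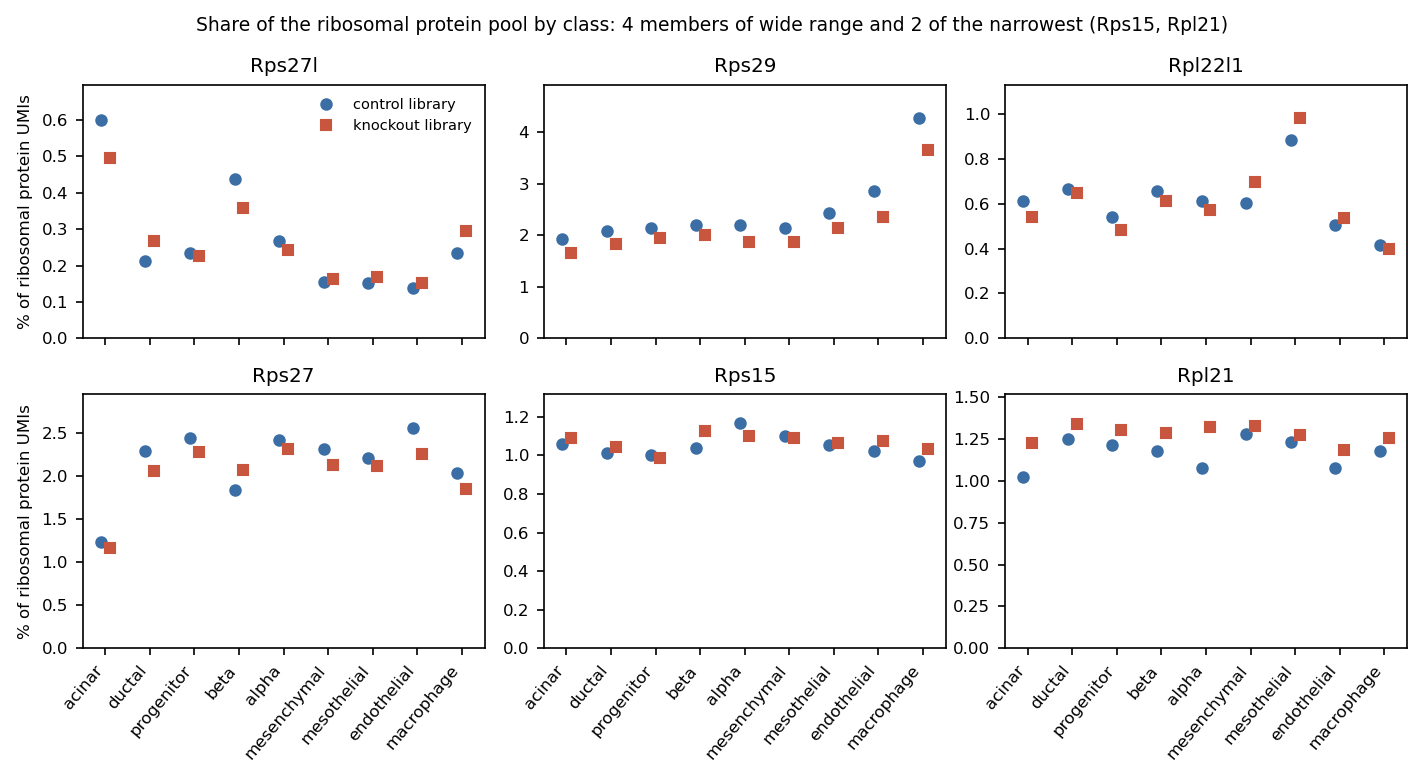
Share of the ribosomal protein pool (vertical axis, %, from 0) by cell class (horizontal axis) for 4 members of wide range, Rps27l, Rps29, Rpl22l1 and Rps27, and 2 of the narrowest, Rps15 and Rpl21, with control as blue dots and knockout as red squares. Rps27l is highest and Rps27 lowest in acinar-like cells of both libraries.

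Rps27l (ENSMUSG00000036781, chr9:66946086-66949516 on the plus strand) varied most. It encodes a paralog of the small subunit protein Rps27 and is known as a target of p53. It took 0.600% of the pool in acinar-like and 0.138% in endothelial-like control cells, a 4.36-fold range, and 0.496% and 0.151% in knockout, a 3.28-fold range. In CPM it was at 1942 in control and 1706 in knockout acinar-like cells, and at 401 and 447 in endothelial-like cells. Beta-like cells were the next highest in both libraries. Its partner Rps27 lay the other way, with its lowest pool share in acinar-like cells (1.23% in control and 1.16% in knockout) and 2.56% and 2.25% in endothelial-like cells. Between libraries Rps27l differed in direction by class: it went from 660 to 841 CPM in ductal-like cells, a ratio of 1.275 (1.220 to 1.333), and from 553 to 697 CPM in macrophage-like cells, while the acinar-like ratio was 0.878. The difference between those ratios was not tested.

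Rps29, a zinc-binding protein of the small subunit, was highest in macrophage-like cells, at 4.27% of the pool in control and 3.66% in knockout, and lowest in acinar-like cells, at 1.92% and 1.67%. Rpl22l1, the paralog of the large subunit protein Rpl22, was highest in mesothelial-like cells, at 0.885% and 0.980%, and lowest in macrophage-like cells, at 0.417% and 0.397%. In mesenchymal-like cells it stood at 1890 CPM in control and 2156 CPM in knockout, a ratio of 1.141 (1.111 to 1.172), while Rpl22 stood at 1305 and 1303 CPM.

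The remaining paralogs were rare. Rpl7l1, a paralog of Rpl7 that acts in ribosome assembly, ranged from 31.0 to 81.2 CPM in control and from 37.6 to 84.6 CPM in knockout classes. Rpl3l, the muscle form of Rpl3, had 4 UMIs in control and 7 in knockout, and Rpl39l had 2 and 5. Rpl10l, known from the testis, had 0 UMIs in control cells, which allows up to 0.138 CPM, and 1 in knockout cells. These 3 were the members below the minimum for any ratio.

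The 4 X-linked members were examined because the embryos differed in sex. Rps4x stood between 1525 and 5116 CPM in control and between 2042 and 5287 CPM in knockout, and its pool ratio ran from 0.946 to 1.119. Rpl10 ran from 0.914 to 1.086, Rpl36a from 0.908 to 1.079 and Rpl39 from 0.791 to 1.048. None of them had the same direction in all 9 classes. Rplp0, Rplp1 and Rplp2 form the stalk that recruits elongation factors to the large subunit. Rplp1 was below 1 in the pool in every class (0.785 to 0.980), Rplp0 in 7 classes and Rplp2 in 3.

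The acinar-like class joined 2 clusters that the libraries filled differently. The cluster led by Clps and Cela3b held 109 control and 329 knockout cells, and the cluster led by Reg1 and Cela1 held 1 control and 430 knockout cells and so was nearly all of a single library. In the shared cluster the ribosomal share was 32.4% in control and 32.5% in knockout, and in the Reg1-led cluster 35.2% in knockout. In the shared cluster Rpl29 was at 2095 CPM in control and 1133 CPM in knockout, Rpl15 at 837 and 567, and Rps27l at 1932 and 2324, so that Rps27l there was higher in knockout, opposite to the whole class. Rpl7, at 2010 and 2048 CPM, hardly differed.

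Within the knockout library the clusters differed in the members themselves. From the shared to the Reg1-led cluster Rpl7 went from 2048 to 3244 CPM, a pool ratio of 1.46 (1.421 to 1.503), and Rps18 from 5169 to 7876 CPM, a pool ratio of 1.41. Rpl10a had a pool ratio of 1.29. Rps27l went from 2324 to 1422 CPM, a pool ratio of 0.565 (0.548 to 0.582), and Rpsa, a small subunit protein also known as the laminin receptor, from 4009 to 3167 CPM, a pool ratio of 0.729. The acinar-like ratios of Rpl7 (1.415) and Rps27l (0.878) over the whole class thus differ from those within the shared cluster (1.019 and 1.203).

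The starts of the genes were searched for the TOP motif. RefSeq promoters (GRCm38.p6, from 250 bases before to 50 after the listed start) were found for 62 members and missing for 21. A run of at least 8 C or T on the transcript strand, within 20 bases of a listed start, was present in 31 of 62 members (50%), against 18.8% of 27025 genes. CTTTC on that strand in the same window was present in 30.6% against 6.64%. On both strands of the 300 bases, the letters CCGGAAG were found in 40.3% of members and 9.93% of genes, CTCGCG in 33.9% and 12.3%, and AAGATGGC in 9.68% and 3.19%. A match is a stretch of letters and not a shown binding site. The run was found in 9 of the 11 matched members that were higher in every class and in 2 of the 7 that were lower. The windows below, 25 bases before and 15 from the start, show 3 members with a typical run, the paralog pairs of Rps27 and Rpl22, and Rpl15. Capitals mark the longest run of at least 8 pyrimidines within 20 bases of the start, and Rpl22 has none. A run counted in this way need not reach the start. That of Rps27l begins at −12 from the listed start and is 9 bases long, so it lies wholly before the start.
Rps6 chr4:86857353-86857392 (minus strand): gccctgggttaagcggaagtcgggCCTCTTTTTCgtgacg
Rpl35 chr2:39005117-39005156 (minus strand): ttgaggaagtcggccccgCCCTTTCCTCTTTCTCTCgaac
Rps18 chr17:33955651-33955690 (minus strand): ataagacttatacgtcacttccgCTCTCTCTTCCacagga
Rps27 chr3:90213634-90213673 (minus strand): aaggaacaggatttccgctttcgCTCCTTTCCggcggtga
Rps27l chr9:66946061-66946100 (plus strand): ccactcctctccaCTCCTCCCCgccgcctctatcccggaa
Rpl22 chr4:152324411-152324450 (plus strand): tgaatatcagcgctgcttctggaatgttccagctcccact
Rpl22l1 chr3:28805483-28805522 (plus strand): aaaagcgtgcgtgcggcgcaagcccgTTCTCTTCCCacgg
Rpl15 chr14:18270972-18271011 (minus strand): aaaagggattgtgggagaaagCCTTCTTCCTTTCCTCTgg

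Other genes of translation were set beside the members by their counts and medians over genes with at least 20 UMIs in a class. The 5 elongation factors were all higher in knockout in beta-like (where 72.8% of all genes were higher), mesenchymal-like (50.4%), mesothelial-like (49.5%), endothelial-like (48.2%) and macrophage-like cells (48.6%). In mesenchymal-like cells their median log2 ratio was 0.12, against 0.00 over all genes, and Eef1a1, which delivers transfer RNA to the ribosome, stood at 5880 and 6470 CPM. In ductal-like cells 2 were higher and 3 lower, with Eef2 at 1543 and 1307 CPM. Of the 29 initiation factors, 24 were higher in mesenchymal-like cells (median 0.13) and 10 in progenitor-like cells (median −0.07, where 47.9% of all genes were higher).

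Genes of the mitochondrial ribosome, which translates the transcripts of the mitochondrial genome, were mostly higher in knockout in acinar-like and ductal-like cells. In acinar-like cells 65 of 76 were higher (63.8% of all genes), with a median log2 ratio of 0.28 against 0.18 over all genes, and in ductal-like cells 66 of 76 (53.5% of all genes), with 0.18 against 0.03. Mrpl30 stood at 193 and 323 CPM in acinar-like cells. The acinar-like class holds the cluster of 1 control and 430 knockout cells, and these genes were not counted by cluster. In mesothelial-like cells 38 of 76 were higher. The cytosolic members had medians of 0.11 and 0.04 in acinar-like and ductal-like cells. Ribosome biogenesis factors had a median of 0.10 in ductal-like cells (32 of 46 higher) and −0.24 in macrophage-like cells (11 of 34 higher). All 5 small nucleolar RNA host genes were lower in ductal-like cells, with a median of −0.27 and Snhg6 at 236 and 174 CPM.

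Over the 18 profiles of class and library, the genes whose log2(CPM + 1) followed the summed members most closely were Rpl13-ps3 (Pearson's r 0.974), Gm2000 (0.959), Gnb2l1 (0.946), Wdr89 (0.944) and Gm10269 (0.915), out of 5054 genes. Rpl13-ps3, Gm2000, Wdr89 and Gm10269 share near-identical sequence with members, and Gnb2l1 encodes Rack1, a protein that binds the small subunit. The least alike were Ppp1r1a (−0.855), Ndufa1, Prkacb, Atp2a2 and Gng12. The profiles share libraries and totals, so these values only describe the order. The authors' deposited table of cluster genes listed 2 members among its 2144 rows: in the authors' deposited table Rps27l stood in place 4 of 233 genes of cluster 8, and Rps2 in place 26 of 261 of cluster 2.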

How the data were processed

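Single-cell transcript counts were deposited by the authors as raw UMI counts per gene and barcode, made from Chromium Single Cell 3′ v2 libraries with Cell Ranger 3.0.0 per the file headers; the submitters' processing notes name Seurat (versions 2 and 3), GRCm38 and mm10. The p-value column of the authors' deposited table of cluster genes came from the authors' own test over cells, which is not named there, and only the place of members in it was used. Per the labels, digestion took 20 min, the final volume was 500 µL for control and 250 µL for knockout, and 17.4 µL of each was loaded, aiming at 10000 cells.

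Left out, in control and knockout, were barcodes with under 500 genes (1290 and 1465), with mitochondrial UMIs above 10% (63 and 57) and doublets called by Scrublet (22 and 24). Each cell was scaled to 10000 counts, logs were taken, and the 2000 most variable genes without members, product, mitochondrial, globin and sex-linked genes gave 30 principal components, 15 neighbours and Leiden clusters at resolution 1. Names needed 3 or more markers of a class within a cluster's 50 leading genes and no contradiction within the first 10. The other 703 cells, in 7 clusters, were not compared. UMIs were summed per class and library and divided by the class total (CPM) or by all member UMIs (the pool). Ratios have exact conditional binomial intervals, and no test was made across libraries because each group is 1 sample.

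Members and lists were chosen with earlier results of these data known. Named members were, per class, the 3 highest and 3 lowest ratios by the interval bound nearest 1, the 5 most abundant, the widest and narrowest over classes, and all paralogs, their partners, X-linked and stalk members; of each other list, the 2 with most UMIs and the 2 farthest from 1; and the 5 genes most and least like the summed members. Members named for their acinar clusters, their direction in all classes or their copies were chosen after their values were seen. Near-identical copies were GENCODE M21 transcripts with at least 95% identity over at least 200 bases (BLAST 2.17.0); their use, and that of the shared barcodes, was chosen after seeing the data. The ratio and its interval were tested on simulated data. Versions were scanpy 1.11.5, pandas 2.3.3, matplotlib 3.10.9, igraph 0.11.9, NumPy 2.4.6, leidenalg 0.10.2, SciPy 1.17.1, Python 3.11.15 and scikit-learn 1.9.0. The alternatives varied filters, doublets, totals, depth, clustering, makeup, free RNA and the members counted. Some results on single genes are not reported here.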

Additional observations from a re-analysis of the deposited data

How the results depend on the processing

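The counts and ratios were recomputed under 738 combinations of result and alternative setting. The ratio of small to large subunit stayed higher in knockout in at least 7 of 9 classes under every setting. The knockout to control ratio of the ribosomal share moved beyond its counting interval, or changed side, as follows. With product genes out of the total it was 0.981 in acinar-like cells (changed side), 1.028 in beta-like, 0.916 in alpha-like, 0.981 in mesothelial-like and 1.020 in endothelial-like cells. As a mean of the cells' own shares it was 1.070 (acinar-like), 0.998 (ductal-like, changed side), 1.021 (progenitor-like), 1.213 (beta-like), 0.935 (alpha-like), 0.981 (mesenchymal-like), 0.979 (mesothelial-like) and 1.023 (endothelial-like). With cells thinned to 2000 UMIs it was 1.074, 0.997 (changed side), 1.015, 1.221, 0.932, 0.983, 0.980 and 1.030 in the same order, and macrophage-like cells, whose interval includes 1, went to 1.0005. At Leiden resolution 2 it was 1.066 (acinar-like), 0.999 (ductal-like, changed side), 0.929 (beta-like, changed side, the insulin-led part only) and 0.991 (mesenchymal-like), and at resolution 0.5 1.066 (acinar-like) and 0.991 (mesenchymal-like). With doublets kept in it was 1.001 (ductal-like), 0.939 (alpha-like), 0.990 (mesenchymal-like), 1.002 (endothelial-like) and 0.986 (macrophage-like). Without proliferating clusters it was 1.008 (ductal-like), 0.993 (mesenchymal-like) and 0.977 (mesothelial-like), and with 5% free RNA subtracted 0.985 (mesenchymal-like) and 0.980 (mesothelial-like). The acinar-like ratio was 1.047 with at least 1000 genes per cell, 1.067 without mitochondrial UMIs, 1.069 without X-linked members and 1.005 in the shared cluster. Without X-linked members the ductal-like ratio was 1.018, and at no more than 5% mitochondrial UMIs the alpha-like ratio was 0.973. The cause of these moves was not tested.

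Summed over the 9 classes, the class counts past the fold came to 71 higher and 29 lower. A member was counted once in each class, and 48 of the 71 came from beta-like cells. No share over all genes was taken for these sums. The sums became 23 and 47 without product genes in the total, 26 and 44 at Leiden resolution 2, and 2 and 8 at a fold of 1.5. They were 38 and 14 where the interval bound had to pass the fold, and on the pool 24 higher and 38 lower. Ratios of single members were recomputed for Rpl29, Rps18, Rpl15, Rpl7, Rpl6l, Rps27l and Rpl22l1 only. The settings were product genes out of the total, thinning, 5% free RNA subtracted, and copies added where a member had them. A further setting kept clusters holding at least 10% of the class in each library. Where the main interval excluded 1, 5 of these ratios changed side. With copies added, Rpl29 in beta-like cells was 1.006 and Rps18 in ductal-like cells 0.985. Rpl15 in beta-like cells was 1.012 after thinning, Rps27l in acinar-like cells 1.203 in the shared cluster, and Rpl22l1 in beta-like cells 0.953 without product genes. Rps27l ratios whose interval included 1 crossed it after thinning in beta-like (1.042), mesenchymal-like (0.968) and mesothelial-like cells (0.969). No paired analysis was possible because each group is 1 library and the labels carry no replicate numbers. Ratios close to 1 are limited by the lack of replicates, and some of them moved with depth as well.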

Other observations

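Targets of p53, a factor that unpaired ribosomal proteins are known to stabilise, are given here by counts and medians only. In beta-like cells 14 of 14 had a higher CPM in knockout, as did 72.8% of all genes, with a median log2 ratio of 0.53 against 0.27 over all genes with at least 20 UMIs. In acinar-like cells 16 of 20 were higher (63.8% of all genes), with medians of 0.42 against 0.18, among them Btg2, a growth-restraining gene, at 316 CPM in control and 605 CPM in knockout, and Plk2, a stress-induced kinase, at 106 and 226 CPM. Btg2 is also in the dissociation list below. The beta-like and acinar-like classes also differed between the libraries in makeup, product genes and depth, as given above. The p53 targets were not counted by cluster or without product genes. In mesothelial-like cells 4 of 18 were higher (49.5% of all genes), with −0.21 against −0.01. Genes that respond to tissue dissociation had median log2 ratios of 0.38 in acinar-like, 0.32 in mesothelial-like and −0.22 in ductal-like cells. Their part in the other values was not tested.

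Other genes known for TOP starts are given in the same way. In acinar-like cells 4 of 11 were higher (63.8% of all genes), with a median of −0.11, while in mesenchymal-like cells 9 of 11 were higher (50.4%), with 0.10, led by Npm1, a nucleolar chaperone, at 1230 and 1523 CPM. Ribosomal protein genes outside the symbol rule were listed together with the near-identical copies Rps27rt, Rpl9-ps6 and Rps18-ps3. The median log2 ratio of this list was 0.04 in acinar-like and −0.05 in mesenchymal-like cells. Rps3a1 stood at 3524 CPM in control and 4132 CPM in knockout over all kept cells.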
